A study of Homo sapiens with 12 samples.

Results

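The genes described here make, move and sense sterols and fatty acids. They are 38 genes, chosen by name as the sterol and lipid genes driven by SREBP transcription factors together with efflux genes driven by the liver X receptor (LXR), and looked up by Ensembl identifier among the 60710 genes of the deposited count table. All 38 were found and all 38 passed the filter on low counts, so they are 38 of the 16366 genes tested. RNA was measured in SH-SY5Y cells, an established human neuroblastoma line, in 4 groups of 3 libraries. Each treated well received HPPE, zinc protoporphyrin or tin protoporphyrin at 5 µM, dissolved in 10 µL of DMSO, for 5 h, and the control wells received the 10 µL of DMSO alone. All groups were grown in medium with 10% fetal bovine serum, which brings its own lipoproteins and fatty acids. Zinc and tin protoporphyrin carry the same porphyrin ring, the ring of heme, around a different metal, and the labels do not spell out HPPE. The data come from 1 cell line, and nothing in the labels says that the 3 libraries of a group were separate cultures, so p-values measure the spread between these libraries, which may be technical.

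Cells make cholesterol from acetyl-CoA through mevalonate, isoprenoid units and squalene. The transcription factor SREBP2, encoded by SREBF2, turns on the genes of this route, and SREBP1, encoded by SREBF1, mainly those of fatty acid synthesis. Both are held in the endoplasmic reticulum by SCAP and the INSIG proteins while sterols are plentiful, and are carried to the Golgi, cut and released when sterols fall. INSIG1 is itself an SREBP target, which closes the loop. Oxysterols act in the other direction by activating LXR, which raises the efflux pumps ABCA1 and ABCG1 and the receptor-degrading ligase MYLIP. In the brain cholesterol is made locally, since lipoproteins of the blood do not cross into it.

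Levels are given as CPM, counts scaled to a common library size with TMM factors (edgeR's CPM), the mean ± SD is over 3 libraries, and comparisons between genes use CPM per kb of the longest annotated transcript. Differences are log2 fold changes ± SE from edgeR's quasi-likelihood test, and a gene was called at a Benjamini-Hochberg adjusted p under 0.05 over all genes tested. Library totals ran from 1337028 to 9145399 counts. The 3 shallowest were control library 3 (1514595), HPPE library 3 (3141853) and zinc library 1 (1337028). Libraries of 1 group also differed in how counts followed transcript length, with correlations across genes from -0.54 in tin library 1 to 0.57 in zinc library 3. By a chi-square on raw counts HPPE libraries 2 and 3 were the most alike of all replicate pairs, at 1.11 per degree of freedom. The other pairs were at 1.49 to 17.3. Where libraries differ this value also rises with depth, which was unequal between pairs. Of 14 noradrenergic neuroblastoma markers 13 had a mean of at least 1 CPM in every group, the exception being TH, the first enzyme of catecholamine synthesis. Summed over 6 fibroblast markers the level was 425 to 455 CPM in the control, 382 to 403 with HPPE, 357 to 388 with zinc protoporphyrin and 391 to 416 with tin protoporphyrin. The sum followed COL3A1, at means of 283, 243, 228 and 245 CPM in those groups, and PDGFRA, at 84.8, 71.5, 60.6 and 67.1. Means of COL1A2 (3.53, 3.57, 6.65 and 7.40), DCN (9.98, 15.3, 16.3 and 17.0) and LUM (7.32, 8.85, 8.30 and 9.78) went the other way. COL1A1 stood at 51.3, 50.1, 53.5 and 55.6. Hepatocyte markers summed to at most 0.264 CPM in any library. The part of depth, length trend or fibroblast markers in the results below was not tested except where a value is given. In bulk RNA, fewer cells of a kind and less RNA per cell cannot be told apart.

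In the DMSO control the route was expressed at very unequal levels. On the CPM per kb scale the fatty acid genes led, with FASN, the fatty acid synthase, at 94.8 ± 5.90 (SD, n = 3), ACLY, which makes cytosolic acetyl-CoA from citrate, at 84.3 ± 2.03, and SCD, which puts the first double bond into saturated fatty acids, at 82.1 ± 12.6. Among the sterol genes, SCAP stood at 34.9 ± 0.868, FDFT1, the squalene synthase, at 31.1 ± 3.30 and SQLE, the squalene epoxidase, at 26.4 ± 1.23. HMGCS1, the synthase that makes HMG-CoA, stood at 17.9 ± 1.44 and INSIG1 at 10.5 ± 1.79. The LXR targets were low, with MYLIP at 4.0 ± 0.255, ABCG1 at 2.44 ± 0.512 and ABCA1 at 0.439 ± 0.117, the lowest of all 38, and the 2 lowest enzymes were CYP51A1, the lanosterol demethylase, at 3.25 ± 0.600 and HSD17B7, a sterol ketone reductase, at 2.94 ± 0.868. ACLY and SCD lay within the SD of SCD of each other.

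A small set of sterol genes was higher after treatment, and the fatty acid genes were not called. HMGCS1 rose with all 3 compounds, INSIG1 with both protoporphyrins, STARD4 and MSMO1 with HPPE and with tin protoporphyrin, IDI1 with HPPE, and MVK and SQLE with tin protoporphyrin. The other 31 genes were called in no comparison with the control, and no gene passed in the other direction. All of these comparisons use 1 set of control libraries, so they are not independent of each other.

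Over all 38 genes HPPE gave 4 calls higher and 0 lower, where 2.57% of all genes tested were called higher and 1.47% lower. Zinc protoporphyrin gave 2 higher and 0 lower (background 1.84% and 0.415%), and tin protoporphyrin 6 higher and 0 lower (background 1.9% and 0.379%). As shares of the 38, these are 10.5%, 5.26% and 15.8% called higher. The log2 fold change was positive for 30, 26 and 31 of the 38, against 52.3%, 49.5% and 51.6% of all genes, and the medians were 0.08, 0.08 and 0.13 against 0.02, -0.00 and 0.01 over all genes. The tin libraries had the highest group mean for 15 of the 38 genes, HPPE for 10, zinc for 9 and the control for 4, and the control had the lowest mean for 21. The counts moved with single libraries, to between 0 and 7 for HPPE, 0 and 2 for zinc protoporphyrin and 2 and 9 for tin protoporphyrin when 1 library was left out. The share of all genes called in those fits is not given here. With HPPE libraries 2 and 3 counted as 1 sample, HMGCS1 alone was called with HPPE.

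HMGCS1 condenses acetyl-CoA with acetoacetyl-CoA to HMG-CoA, the substrate from which mevalonate is made. Its level was 57.5, 62.6 and 67.6 CPM in the control, 75.7, 88.4 and 82.3 with HPPE, 80.6, 90.8 and 80.6 with zinc protoporphyrin and 94.5, 96.3 and 99.4 with tin protoporphyrin. Every treated library lay above every control library, and the tin libraries lay above all others. HMGCS1 rose by a log2 fold change of 0.41 ± 0.09 with HPPE (adjusted p = 0.0117), 0.46 ± 0.09 with zinc protoporphyrin (adjusted p = 0.0135) and 0.65 ± 0.09 with tin protoporphyrin (adjusted p = 0.000292). With tin protoporphyrin the call held when any 1 of the 12 libraries was left out (adjusted p at most 0.00702). With HPPE it was lost without control library 1 (0.134), control library 2 (0.0687) or HPPE library 2 (0.119), and with zinc protoporphyrin without control library 1 (0.077), control library 2 (0.0836) or zinc library 2 (0.0799), all as adjusted p. The zinc call was also lost without the 3 shallowest libraries.

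INSIG1 retains the SCAP and SREBP complex in the endoplasmic reticulum. It stood at 27.4, 29.7 and 37.6 CPM in the control, at 38.9, 37.9 and 39.9 with HPPE, at 45.9, 48.4 and 46.4 with zinc protoporphyrin and at 60.2, 51.1 and 49.96 with tin protoporphyrin. The 4 groups did not overlap and stepped up in that order, although the lowest HPPE library was close to control library 3. INSIG1 rose by a log2 fold change of 0.84 ± 0.11 with tin protoporphyrin (adjusted p = 0.00023), which is 1.79-fold and the largest among the 38 genes in any comparison with the control. With zinc protoporphyrin it was 0.65 ± 0.11 (adjusted p = 0.00598), and with HPPE it was 0.36 ± 0.11, which did not pass (adjusted p = 0.0851). The tin call held when any 1 library was left out (adjusted p at most 0.00594), and the zinc call was lost only without control library 2 (adjusted p = 0.0678). Without control library 3, the highest of its group, INSIG1 was called with HPPE too. The same call came under a correction for length and GC content and under a covariate for the main axis of within-group spread.

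**Figure D1:**
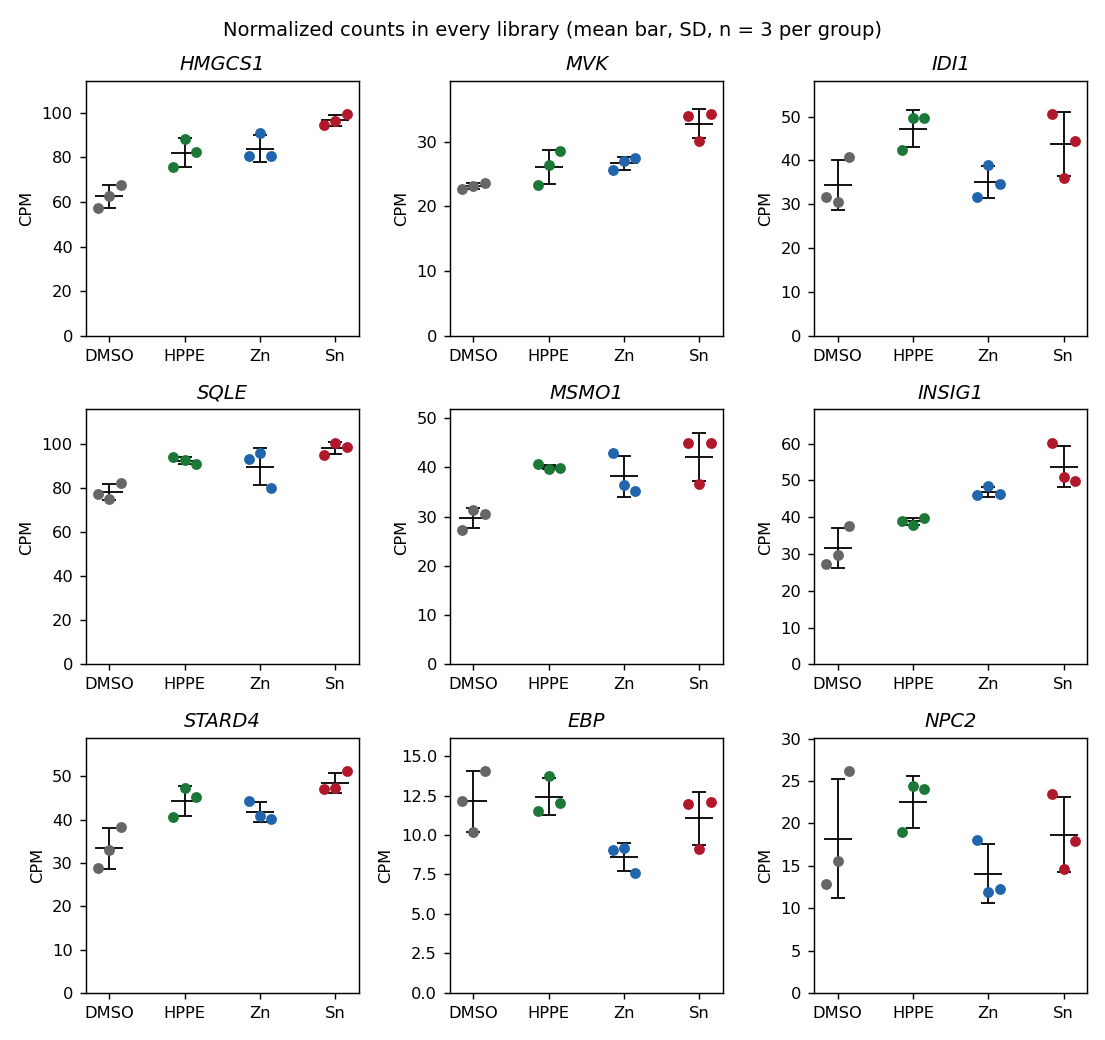
Normalized counts (CPM, vertical axis from 0) of 9 genes in each of the 12 libraries, by group on the horizontal axis (Zn and Sn are the zinc and tin protoporphyrins); points are libraries, the bar is the mean and the whiskers the SD over 3. For HMGCS1 and INSIG1 every treated library lies above every control library, whereas EBP and NPC2 have their lowest group mean with zinc protoporphyrin.

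The HMGCS1 gene lies on the minus strand of chromosome 5 at chr5:43289395-43313512 and INSIG1 on the plus strand at chr7:155297776-155310235, both in GRCh38 with GENCODE release 29 genes. STARD4 is at chr5:111496033-111512590, minus strand, MSMO1 at chr4:165327623-165343160, plus strand, and SREBF2 at chr22:41833079-41907308, plus strand. RefSeq promoter windows (GRCh38.p14, 250 bases before to 50 after the start) were found for 33 of the 38 genes, and those of ACAT2, FDFT1, SQLE, ABCG1 and FASN were not used here. The part of the window before the first annotated base of the gene is shown for 4 genes that rose in at least 2 comparisons and for SREBF2, the regulator of the route. Capitals mark matches to a CCAAT box, read as CCAAT or, on the other strand, ATTGG, and in SREBF2 the sterol element.

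HMGCS1 (chr5:43313513-43313662, minus strand): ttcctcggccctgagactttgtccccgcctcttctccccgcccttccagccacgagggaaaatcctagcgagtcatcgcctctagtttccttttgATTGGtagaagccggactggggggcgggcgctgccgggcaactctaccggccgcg
MSMO1 (chr4:165327419-165327622, plus strand): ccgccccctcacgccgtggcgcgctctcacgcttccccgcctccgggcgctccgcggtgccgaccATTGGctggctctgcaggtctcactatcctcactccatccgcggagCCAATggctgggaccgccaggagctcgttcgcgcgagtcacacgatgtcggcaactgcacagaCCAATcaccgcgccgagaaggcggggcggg
INSIG1 (chr7:155297628-155297775, plus strand): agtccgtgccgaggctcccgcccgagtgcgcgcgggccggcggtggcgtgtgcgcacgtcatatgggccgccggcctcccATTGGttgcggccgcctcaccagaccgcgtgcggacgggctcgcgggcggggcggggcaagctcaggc
STARD4 (chr5:111512591-111512785, minus strand): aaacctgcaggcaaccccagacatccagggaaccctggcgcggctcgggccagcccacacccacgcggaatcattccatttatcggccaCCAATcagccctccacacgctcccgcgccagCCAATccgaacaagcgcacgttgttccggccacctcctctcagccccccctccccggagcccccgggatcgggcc
SREBF2 (chr22:41832855-41833078, plus strand): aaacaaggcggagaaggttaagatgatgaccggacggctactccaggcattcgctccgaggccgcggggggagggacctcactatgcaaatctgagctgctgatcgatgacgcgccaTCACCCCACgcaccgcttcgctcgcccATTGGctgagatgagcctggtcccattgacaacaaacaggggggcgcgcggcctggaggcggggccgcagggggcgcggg

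In cells SREBP is known to bind sterol regulatory elements beside sites for the CCAAT-binding factor NF-Y and the GC-box factor SP1. A CCAAT box was present in 20 of 33 windows (60.6%), compared with 34.7% of 22199 windows of protein-coding genes. Of the 6 genes called higher against the control that have a window, 5 held a CCAAT box, IDI1 being the exception. Of the 27 other genes with a window 15 did (55.6%), among them 3 of the 8 fatty acid genes. A GC box, GGGCGG, was present in 31 of 33 windows (93.9%, against 56.3% of all), and an E-box, CACGTG, in 5 of 33 (15.2%, against 8.34%). The sterol element as searched, TCACNCCAC, was found in 1 window of 33, that of SREBF2 at 133 bases before the start, against 1.13% of all windows. Both strands were read, and none of the 136 matches overlapped a match to another motif. A match is a description of letters, and the known sterol elements of many of these genes differ from the pattern searched or lie outside the window.

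**Figure D2:**
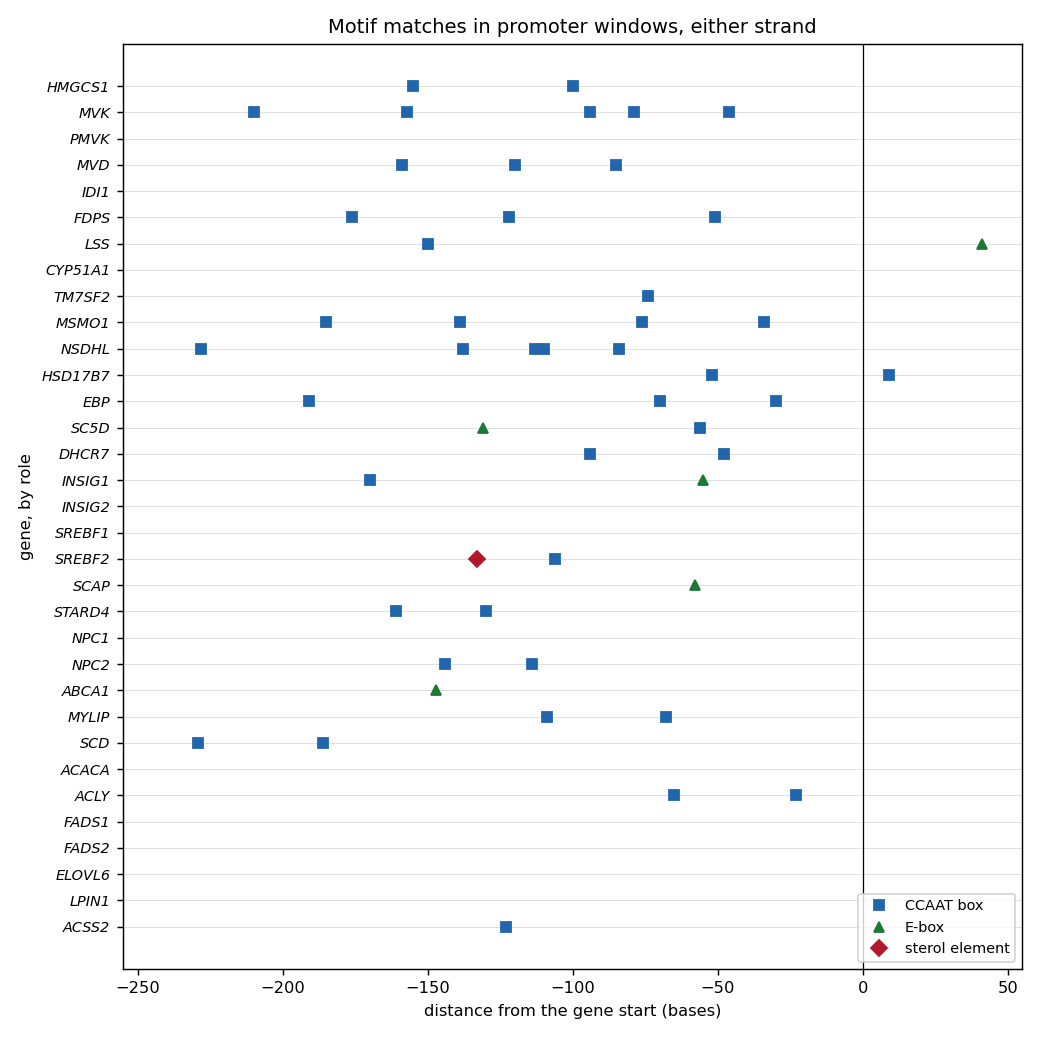
Position of CCAAT boxes (squares), E-boxes (triangles) and the sterol element (diamond) on either strand, as distance in bases from the RefSeq gene start (horizontal axis), for the 33 genes with a promoter window, ordered by role. CCAAT boxes lie in 20 windows and most of them before the start, and the sterol element is found in that of SREBF2 alone.

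The 7 genes of the mevalonate and isoprenoid steps differed among themselves. HPPE raised 2 of the 7 and tin protoporphyrin 2, zinc protoporphyrin 1, and the median log2 fold changes were 0.11, 0.19 and 0.08. MVK, the kinase that adds the first phosphate to mevalonate, stood at 22.6, 23.2 and 23.6 CPM in the control and at 34.0, 30.1 and 34.2 with tin protoporphyrin. The tin libraries lay above all other libraries, at a log2 fold change of 0.51 ± 0.11 (adjusted p = 0.0162). HPPE libraries were at 23.3, 26.4 and 28.5 CPM and zinc libraries at 25.6, 26.95 and 27.5. The tin call was lost without control library 1 (adjusted p = 0.112), control library 2 (0.104) or tin library 3 (0.0904), and when only the control and tin libraries were fitted.

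IDI1, which interconverts the 2 five-carbon isoprenoid units, was at 31.7, 30.6 and 40.8 CPM in the control and at 42.4, 49.6 and 49.7 with HPPE. The groups did not overlap, but the margin to control library 3 was small. Its log2 fold change with HPPE was 0.51 ± 0.14 (adjusted p = 0.0395). With tin protoporphyrin IDI1 was at 50.5, 36.1 and 44.5 CPM and with zinc protoporphyrin at 31.6, 38.9 and 34.6, and both overlapped the control. The HPPE call was the least stable of the 4: it was lost without control library 1 (adjusted p = 0.214), control library 2 (0.236), HPPE library 2 (0.207), HPPE library 3 (0.131) and, narrowly, without any zinc library (0.053, 0.0531 and 0.0527) or tin library 3 (0.0662). It was also lost with unscaled library sizes, without the 3 shallowest libraries and with HPPE libraries 2 and 3 summed. MVD, PMVK, FDPS and ACAT2 were called in no comparison, with log2 fold changes from -0.19 to 0.19 over the control.

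Of the 11 genes that carry squalene to cholesterol, HPPE raised 1, tin protoporphyrin 2 and zinc protoporphyrin none, with medians of 0.16, 0.31 and 0.10. MSMO1, the methylsterol oxidase that starts removal of the C4 methyl groups, was at 27.4, 31.3 and 30.6 CPM in the control and at 40.6, 39.7 and 39.9 with HPPE. With tin protoporphyrin it stood at 45.01, 36.6 and 44.9 and with zinc protoporphyrin at 42.9, 36.4 and 35.2. All 9 treated libraries lay above all 3 control libraries. The log2 fold change was 0.44 ± 0.11 with HPPE (adjusted p = 0.0326), 0.51 ± 0.11 with tin protoporphyrin (adjusted p = 0.017) and 0.32 ± 0.12 with zinc protoporphyrin, which did not pass (adjusted p = 0.147). The HPPE call was lost without control library 1 (adjusted p = 0.241), control library 2 (0.0872) or HPPE library 1 (0.0955), 2 (0.12) or 3 (0.0893), and the tin call without control library 1 (0.152), control library 2 (0.0652) or tin library 3 (0.0968). Beyond single libraries, the HPPE call was lost with DESeq2, with unscaled library sizes, without the 3 shallowest libraries and with HPPE libraries 2 and 3 summed, and the tin call when only the control and tin libraries were fitted.

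SQLE makes the epoxide that lanosterol synthase folds into the sterol ring, a rate-limiting step after mevalonate. It stood at 77.4, 75.2 and 82.3 CPM in the control, at 93.9, 92.7 and 90.9 with HPPE, at 93.4, 95.8 and 80.2 with zinc protoporphyrin and at 95.1, 101 and 98.5 with tin protoporphyrin. HPPE and tin libraries lay above every control library, and 1 zinc library lay within the control range. The log2 fold change was 0.34 ± 0.08 with tin protoporphyrin (adjusted p = 0.0337), 0.25 ± 0.08 with HPPE (adjusted p = 0.0951) and 0.20 ± 0.08 with zinc protoporphyrin (adjusted p = 0.216). The tin call was lost without control library 1 (adjusted p = 0.161), control library 2 (0.214), tin library 3 (0.139) or any HPPE library (0.0583, 0.0677 and 0.0539), and also with DESeq2 in place of edgeR, without the filter, without the 3 shallowest libraries, with HPPE libraries 2 and 3 summed and when only the control and tin libraries were fitted.

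The last enzyme of one branch, DHCR7, which reduces 7-dehydrocholesterol to cholesterol, was at 39.9 ± 2.45 CPM (SD, n = 3) in the control, 44.2 ± 2.90 with HPPE, 47.6 ± 3.13 with zinc protoporphyrin and 49.2 ± 2.40 with tin protoporphyrin. Its log2 fold changes were 0.16 ± 0.09, 0.25 ± 0.09 and 0.32 ± 0.09, with adjusted p = 0.396, 0.17 and 0.0769, so none was called. TM7SF2, a sterol C14 reductase, went the other way without being called, at -0.29, -0.21 and -0.20. With HPPE, TM7SF2 was called lower under a correction for length and GC content and under a covariate for the main axis of within-group spread. The other 7 genes of these steps lay between -0.46 and 0.60, the top value being that of HSD17B7 with tin protoporphyrin (adjusted p = 0.197). HSD17B7 had only 7 counts in zinc library 1 and has 2 named pseudogenes, so its value is uncertain.

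**Figure D3:**
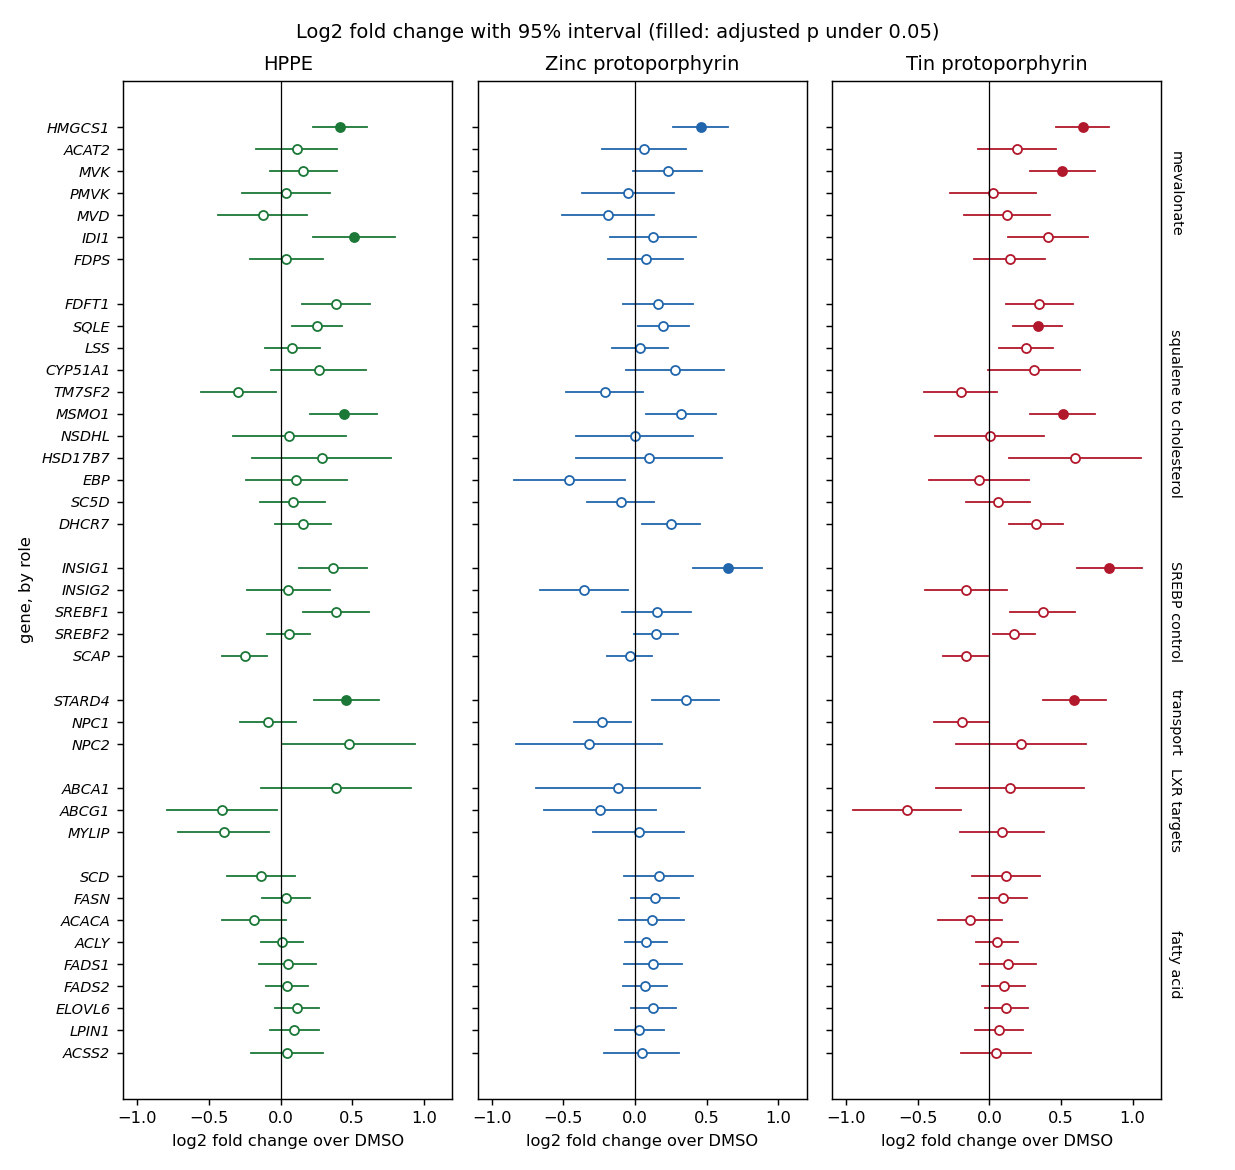
Log2 fold change over the DMSO control (horizontal axis) with its 95% interval for the 38 genes, by role, with HPPE, zinc protoporphyrin and tin protoporphyrin in the 3 panels; filled points have an adjusted p under 0.05 in edgeR's quasi-likelihood test. Filled points number 4, 2 and 6, all to the right of 0, and the 9 fatty acid genes at the bottom stay within -0.18 and 0.17.

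Of the 5 genes that control SREBP, INSIG1 alone was called in a comparison with the control. SREBF2 stood at 149 ± 8.98 CPM (SD, n = 3) in the control and at 156 ± 4.61, 166 ± 0.862 and 169 ± 3.94 with HPPE, zinc and tin protoporphyrin, log2 fold changes of 0.06 ± 0.07, 0.15 ± 0.07 and 0.17 ± 0.07 (adjusted p = 0.727, 0.285 and 0.265). SREBF1 was at 29.5, 29.2 and 31.3 CPM in the control, 39.3, 36.6 and 41.5 with HPPE, 38.4, 33.4 and 30.6 with zinc protoporphyrin and 41.5, 34.3 and 39.5 with tin protoporphyrin. HPPE and tin libraries lay above the control without overlap, yet the log2 fold changes of 0.39 ± 0.11 and 0.37 ± 0.11 missed the threshold (adjusted p = 0.0571 and 0.0884), and that with zinc protoporphyrin was 0.15 ± 0.11 (adjusted p = 0.5). SREBF1 was called with HPPE without control library 3, tin library 1 or tin library 2, and with tin protoporphyrin without tin library 2. Both calls also came under the correction for length and GC content and under the covariate for within-group spread. The HPPE call came as well when only the control and HPPE libraries were fitted. SCAP, the escort that senses sterol, was at 153 ± 3.82 CPM in the control and 129 ± 2.12 with HPPE, with all 3 HPPE libraries below all 3 control libraries (log2 fold change -0.25 ± 0.07, adjusted p = 0.0705). SCAP was called lower with HPPE under the correction for length and GC content, under the covariate and without tin library 2. INSIG2, the second retention protein, had log2 fold changes of 0.05, -0.36 and -0.16 and was not called.

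STARD4, a carrier that moves sterol between membranes in the cytosol, was at 28.8, 33.0 and 38.3 CPM in the control and at 40.5, 47.3 and 45.3 with HPPE. It was at 44.4, 40.8 and 40.2 with zinc protoporphyrin and at 47.1, 47.4 and 51.2 with tin protoporphyrin. All treated libraries lay above control library 3, the highest of its group, with the zinc libraries nearest to it. STARD4 rose by a log2 fold change of 0.59 ± 0.10 with tin protoporphyrin (adjusted p = 0.00382), 0.46 ± 0.11 with HPPE (adjusted p = 0.0201) and 0.35 ± 0.11 with zinc protoporphyrin (adjusted p = 0.101). The tin call was lost without control library 1 (adjusted p = 0.0636), and the HPPE call without control library 1 (0.218), control library 2 (0.0885), HPPE library 2 (0.159) or HPPE library 3 (0.0684). The tin call was also lost when only the control and tin libraries were fitted, and the HPPE call with HPPE libraries 2 and 3 summed. NPC1 and NPC2, which hand cholesterol out of lysosomes, were not called against the control, NPC1 at -0.09, -0.23 and -0.19 and NPC2 at 0.48, -0.32 and 0.22.

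The LXR targets gave no call. ABCA1, the pump that loads cholesterol and phospholipid onto apolipoproteins, was at 4.60 ± 1.23 CPM (SD, n = 3) in the control, 5.64 ± 0.750 with HPPE, 4.64 ± 1.85 with zinc protoporphyrin and 4.72 ± 0.632 with tin protoporphyrin. Its log2 fold changes were 0.39 ± 0.25, -0.12 ± 0.27 and 0.14 ± 0.24 (adjusted p = 0.439, 0.847 and 0.849), and with 9 to 49 counts per library only large changes could have been detected. The direction with zinc protoporphyrin turned to 0.03 without control library 1, and that with tin protoporphyrin to -0.09 without control library 2. ABCG1, which exports sterol to lipoprotein particles, was at 10.5, 7.92 and 7.02 CPM in the control and at 6.10, 6.41 and 5.29 with tin protoporphyrin, below the control in every library, as were the HPPE libraries at 6.50, 6.87 and 6.65, but not called (log2 fold change -0.57 ± 0.18, adjusted p = 0.119). MYLIP was at 11.2 ± 0.713 CPM in the control and 8.57 ± 0.304 with HPPE, again without overlap and without a call (-0.40 ± 0.15, adjusted p = 0.172).

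None of the 9 fatty acid genes was called in any of the 6 comparisons, although small positive log2 fold changes were common, in 7 of 9 with HPPE, 9 with zinc protoporphyrin and 8 with tin protoporphyrin (medians 0.04, 0.12 and 0.10). FASN stood at 863, 810 and 763 CPM in the control, 872, 803 and 827 with HPPE, 906, 921 and 864 with zinc protoporphyrin and 840, 908 and 862 with tin protoporphyrin. Its log2 fold changes were 0.04 ± 0.08 with HPPE, 0.14 ± 0.08 with zinc protoporphyrin and 0.10 ± 0.08 with tin protoporphyrin (adjusted p = 0.854, 0.354 and 0.629), with 95% intervals of -0.13 to 0.20, -0.03 to 0.31 and -0.07 to 0.27. SCD stood at 440 ± 67.7 CPM (SD, n = 3) in the control, 403 ± 21.0 with HPPE, 496 ± 31.2 with zinc protoporphyrin and 480 ± 67.1 with tin protoporphyrin. The log2 fold changes of SCD were -0.14 ± 0.11, 0.17 ± 0.11 and 0.12 ± 0.11 (adjusted p = 0.567, 0.455 and 0.704), with intervals of -0.38 to 0.10, -0.07 to 0.41 and -0.12 to 0.35.

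FASN, SCD and ACLY had the most control counts of the 38 genes, FASN having 1195 to 8074 counts per library, and the intervals of FASN lie below the log2 fold change of 0.65 that HMGCS1 reached with tin protoporphyrin. That is among the largest sterol values. The SCD interval with tin protoporphyrin reaches above the 0.34 at which SQLE was called with the same compound. ACLY had 366 ± 8.79 CPM in the control and log2 fold changes of 0.01, 0.08 and 0.05. ACACA, which makes malonyl-CoA, was at -0.18 with HPPE, 0.12 with zinc protoporphyrin and -0.13 with tin protoporphyrin. FADS1 and FADS2, the desaturases of polyunsaturated fatty acids, ELOVL6, which elongates palmitate, LPIN1, a phosphatidate phosphatase, and ACSS2, which activates acetate, lay between 0.03 and 0.13 in all 3 comparisons. The treated libraries of ELOVL6 all lay above its control libraries, at log2 fold changes of 0.11, 0.13 and 0.12, which did not pass (adjusted p = 0.446, 0.375 and 0.481). Across genes, log2 fold changes over the control were correlated with transcript length, at -0.238 for HPPE, 0.0921 for zinc and -0.177 for tin protoporphyrin. Longest transcripts were of 8565 bases for FASN, 5362 for SCD and 3065 for ACSS2, against 3506 for HMGCS1, 3010 for INSIG1 and 4606 for STARD4. With a correction for length and GC content no fatty acid gene was called against the control. With a covariate for the main axis of within-group spread, SCD and FASN were called higher with zinc protoporphyrin and ACACA lower with HPPE. Between HPPE and zinc protoporphyrin, SCD and ACACA were called lower with HPPE when only those groups were fitted. The same 2 calls came without control library 3, tin library 1 or tin library 2. The absence of fatty acid calls thus depended on the fit. The difference in response between the sterol and the fatty acid genes was not itself tested, nor was the part of length in it.

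**Figure D4:**
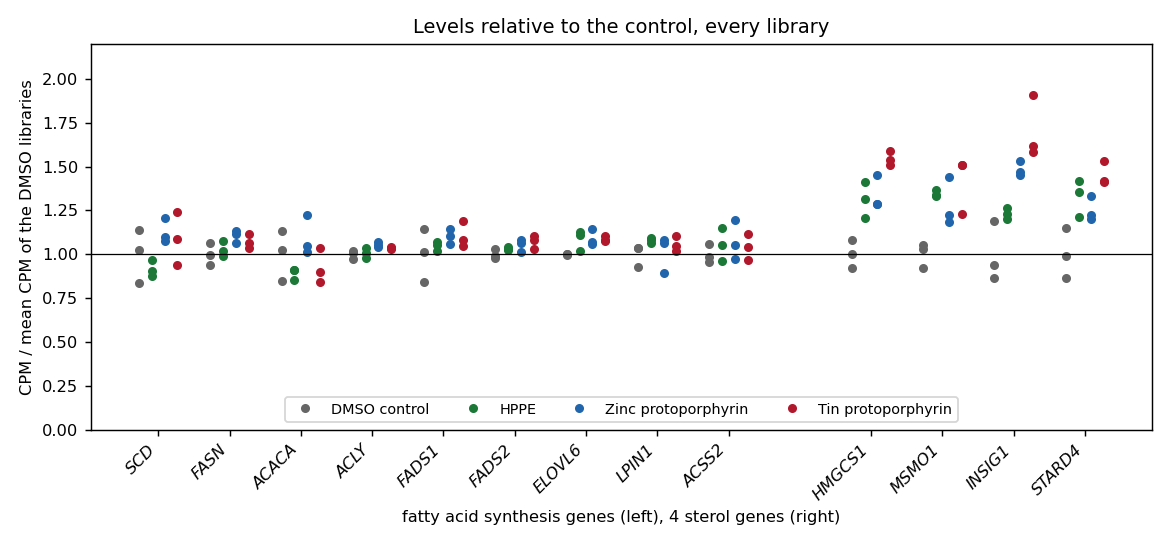
CPM of each library divided by the mean CPM of the DMSO libraries (vertical axis from 0) for the 9 fatty acid genes on the left and 4 sterol genes on the right; colours are the 4 groups and the line marks the control mean. Of the 81 treated fatty acid values 38 lie within the range of their control libraries, 41 above it and 2 below it, while the treated points of HMGCS1, MSMO1 and STARD4 lie above all their control points. The 81 values share the same control libraries, and the same count was not made over all genes, so it has no background.

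Further genes of these pathways were taken from a second list. Of its 49 genes 44 were tested, and those that did not pass the filter on low counts include CH25H, CYP27A1, CYP46A1 and MLXIPL. HPPE raised 4 of the 44 (9.09%, against 2.57% of all genes) and zinc protoporphyrin 1 (2.27%, against 1.84%, which is near the background), and none was called lower with any compound. LRP8, a receptor of the low-density lipoprotein receptor family, rose with HPPE by 0.62 ± 0.11 (adjusted p = 0.00244) and with zinc protoporphyrin by 0.54 ± 0.11 (adjusted p = 0.0171), from 85.2, 86.1 and 59.3 CPM in the control to 128, 121 and 117 with HPPE and 117, 108 and 122 with zinc protoporphyrin. With tin protoporphyrin LRP8 was at 0.40 ± 0.11 (adjusted p = 0.0631). With HPPE ME1 passed, the cytosolic malic enzyme that makes NADPH and is also known as a target of NRF2, at 1.24 ± 0.13 (adjusted p = 1.33e-05), as did ELOVL5, an elongase of polyunsaturated fatty acids, at 0.40 ± 0.07 (adjusted p = 0.00346) and FADS3, a sphingoid base desaturase, at 0.66 ± 0.17 (adjusted p = 0.0319). The log2 fold change was positive for 30, 13 and 21 of the 44, with medians of 0.11, -0.11 and -0.01.

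ME1 and ELOVL5 were also higher with HPPE than with either protoporphyrin, at 1.07 ± 0.13 over zinc (adjusted p = 0.000134) and 1.27 ± 0.12 over tin (adjusted p = 6.71e-06) for ME1, and 0.44 ± 0.07 (adjusted p = 0.00253) and 0.35 ± 0.07 (adjusted p = 0.0146) for ELOVL5. The group means of ME1 were 25.5 ± 2.22 CPM (SD, n = 3) in the control, 62.1 ± 4.58 with HPPE, 32.2 ± 9.34 with zinc protoporphyrin and 25.6 ± 0.215 with tin protoporphyrin. Of the SREBP processing genes, the proteases MBTPS1 and MBTPS2 and the ubiquitin factors RNF139 and UBE2G2 had no call in any comparison, with log2 fold changes over the control from -0.24 to 0.08.

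The compounds were compared with each other at the same dose and time, in 3 pairs. Zinc and tin protoporphyrin, which differ in the metal, gave no call among the 38 genes with edgeR, where 0.00611% of all genes were called higher and 0% lower, and none with DESeq2. In edgeR's test 10 of the 38 had an unadjusted p under 0.05. The share of all genes under that unadjusted threshold is not given here, so the 10 cannot be set against a background. The value was lower with zinc than with tin protoporphyrin for all 7 mevalonate genes and all 11 genes from squalene to cholesterol. It was lower for 30 of the 38 in all, with a median of -0.07 (-0.01 over all genes). Over all genes tested, 48.8% had a value that was higher with zinc protoporphyrin. Between these 2 compounds log2 fold changes rose with transcript length (correlation 0.248 across genes), and the part of length was not tested. For HMGCS1 the difference was -0.19 (95% interval -0.37 to -0.01, adjusted p = 0.362), for INSIG1 -0.19 (-0.41 to 0.03, adjusted p = 0.425) and for SQLE -0.14 (-0.31 to 0.03, adjusted p = 0.446). The missing calls do not show that the metals act alike. Without tin library 2, which differed most from its group (chi-square of 17.3 and 8.32 per degree of freedom), ACACA was called higher and MVD, IDI1 and NPC2 lower with zinc protoporphyrin.

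HPPE and tin protoporphyrin differed in INSIG1, which was lower with HPPE by a log2 fold change of -0.47 ± 0.10 (adjusted p = 0.0232), the 3 HPPE libraries at 37.9 to 39.9 CPM all below the 3 tin libraries at 49.96 to 60.2. The background in that comparison was 0.745% of genes higher and 0.709% lower with HPPE. The call was lost without HPPE library 1 (adjusted p = 0.0857), 2 (0.165) or 3 (0.083) or tin library 1 (0.0602), and also without the 3 shallowest libraries, with HPPE libraries 2 and 3 summed and when only the HPPE and tin libraries were fitted. HMGCS1 was at -0.23 ± 0.08 (adjusted p = 0.211) and MVK at -0.35 ± 0.10 (adjusted p = 0.121) in the same direction, both with non-overlapping libraries and without a call.

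HPPE and zinc protoporphyrin differed in EBP, the sterol isomerase, and NPC2, both higher with HPPE, in a comparison where 6.44% of all genes were called higher and 6.26% lower, so 2 of 38 (5.26%) is near the background. EBP was at 11.5, 13.7 and 12.03 CPM with HPPE and 9.04, 9.16 and 7.58 with zinc protoporphyrin (log2 fold change 0.57 ± 0.18, adjusted p = 0.0432), and NPC2 was at 19.0, 24.5 and 24.1 against 18.1, 11.9 and 12.3 (0.80 ± 0.22, adjusted p = 0.0322). Neither gene was called against the control, where the zinc libraries of EBP lay below all control libraries (-0.46 ± 0.18, adjusted p = 0.192). Their longest transcripts, of 1775 and 1436 bases, are short beside the median of 3327 over the genes tested, and in this comparison log2 fold changes fell with transcript length (correlation -0.233 across genes). With a correction for length and GC content the EBP call was lost and that of NPC2 held, and both were lost without HPPE library 2 (adjusted p = 0.203 and 0.149), HPPE library 3 (0.0955 and 0.0932), zinc library 2 (0.0661 and 0.105) or zinc library 3 (0.265 and 0.185). EBP was lost in addition without control library 2 (0.0529), zinc library 1 (0.0588) or tin library 3 (0.0583), and with DESeq2. Both calls were lost without the 3 shallowest libraries and with HPPE libraries 2 and 3 summed.

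Some genes cannot be fully separated from their neighbours. The strand setting of the counting is not given in the sources used here, and 17 of the 38 genes have an exon that overlaps an exon of a gene on the opposite strand, among them HMGCS1, IDI1, STARD4 and MVK, whose partner MMAB makes the enzyme that adenosylates cobalamin. FADS1 and FADS2 overlap each other, ACAT2 overlaps TCP1 and NPC2 overlaps ISCA2. On the same strand 5 of the 38 have such an overlap, which no strand setting would separate. They are TM7SF2 (with VPS51), FADS2 (with FEN1), CYP51A1, and NPC2 and FADS1, each with a microRNA gene. Pseudogenes that carry the gene's symbol exist for 5 of the 38 (FDPS, CYP51A1, HSD17B7, SCD and FADS2), and INSIG1, MSMO1 and SQLE have neither an overlap nor such a copy.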

How the data were processed

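Per the labels' protocols, an MGIEasy kit for mRNA was used to build the libraries. The authors deposited 1 table of raw counts, whole numbers for each gene with no scaling. Per the submitters' processing notes, fastp 0.21.1, STAR 2.7.7a, featureCounts and GRCh38 were used; the annotation release, strand and multimapping settings are not given in the sources used here. Groups follow the treatment labels, and 1 table column belongs to each of the 12 libraries.

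The counts were tested with edgeR 4.0.16 in R 4.3.3 (filterByExpr, TMM, robust glmQLFit, glmQLFTest, two-sided), with 1 mean per group over all 12 libraries and 6 comparisons. The filter left 16366 genes, which hold 99.6% of counts. P-values were Benjamini-Hochberg adjusted over these, and the biological coefficient of variation was 0.0913. The standard error is the log2 fold change divided by the root of F. The script was tested on simulated data. Total counts of 1337028 to 9145399 per library limit precision for genes with few counts. Reads carry no molecular identifiers.

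Genes named are those called, plus INSIG1, HMGCS1, SQLE, DHCR7, SREBF1, SREBF2, ABCA1, SCD and FASN in each comparison with the control; further genes are given to show ranges and were picked after their values were seen. The members and lists were chosen with earlier results of these data known. Epithelial and leukocyte markers, listed as well, summed to at most 14.2 and 1.32 CPM. Alternatives were edgeR's RLE factors, unscaled library sizes, other filters, DESeq2 1.42.0, fits of the compared groups only, a replicate block, a covariate for the main axis of within-group spread, a correction for transcript length and GC content, omission of the 3 shallowest libraries, HPPE libraries 2 and 3 summed, and omission of each library. Some genes are not reported here.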

Additional observations from a re-analysis of the deposited data

How the results depend on the processing

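Of 36 named values under 23 alternatives (828 in all), 716 kept their direction and side of the threshold, 86 lost the call, 21 gained one and 5 changed sign. The calls of HMGCS1 and INSIG1 with tin protoporphyrin held under all 23. The sign changes, in log2 fold change with the range over left-out libraries, were FASN with HPPE (-0.0035 without control library 3 and -0.00252 without HPPE library 1, range -0.0035 to 0.076), ABCA1 with zinc protoporphyrin (0.026 without control library 1, range -0.35 to 0.026), ABCA1 with tin protoporphyrin (-0.087 without control library 2, range -0.087 to 0.29) and SCD with tin protoporphyrin (-0.0010 without tin library 2, range -0.0010 to 0.22).

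The number of the 38 genes called moved as follows, and the cause was not tested. The share of all genes called under each alternative is not given here, so the counts in this section cannot be set against a background. For HPPE against the control (4) it was 2 with unscaled library sizes, 2 without the 3 shallowest libraries, 1 with HPPE libraries 2 and 3 summed, 9 with the length and GC correction (7 higher, 2 lower) and 12 with the covariate for the main axis of within-group spread (9 higher, 3 lower). Left-out libraries gave 0 to 7: 0 without control library 1, control library 2 or HPPE library 2, 1 without HPPE library 3, and 7 without control library 3 or tin library 2. For zinc protoporphyrin against the control (2) it was 1 without the shallowest libraries, 4 with the length and GC correction and 13 with the covariate (9 higher, 4 lower), and 0 to 2 with 1 library left out (0 without control library 2, 1 without control library 1 or zinc library 2). For tin protoporphyrin against the control (6) it was 2 with the compared groups only, a fit on fewer libraries, and 15 with the covariate (13 higher, 2 lower), and 2 to 9 with 1 library left out (2 without control library 1, 3 without control library 2 or tin library 3, 9 without tin library 2). For zinc against tin protoporphyrin (0) it was 1 without the filter, 5 with the covariate (1 higher, 4 lower) and 0 to 4 with 1 library left out. For HPPE against zinc protoporphyrin (2) it was 5 without the filter, 1 with DESeq2, 8 with the compared groups only, 11 with the covariate, 0 without the shallowest libraries, 0 with HPPE libraries 2 and 3 summed, 5 with the length and GC correction and 0 to 7 with 1 library left out. For HPPE against tin protoporphyrin (1) it was 0 with the compared groups only, 0 without the shallowest libraries, 0 with HPPE libraries summed, 6 with the covariate, 2 with the length and GC correction and 0 to 1 with 1 library left out. The covariate was computed from the same libraries' deviations, which lowers the residual spread, so its counts are not evidence of more change.

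Same-numbered libraries did not deviate together (correlations from -0.68 to 0.52 over 18 pairs, median -0.14), so the numbers were not taken as pairs. With the replicate block the counts were 2 for HPPE, 2 for zinc and 3 for tin protoporphyrin against the control, and 0 for zinc against tin, 0 for HPPE against zinc and 0 for HPPE against tin protoporphyrin. The genes called with it were HMGCS1 and STARD4 with HPPE, HMGCS1 and INSIG1 with zinc protoporphyrin, and HMGCS1, INSIG1 and STARD4 with tin protoporphyrin. All other calls were lost with the block, which is not repeated at the single genes above.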
